A study of Mus musculus with 8 samples.

Results

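This account covers 34 genes of cholesterol synthesis, its transcriptional control, transport and turnover in the mouse hippocampus, taken by symbol from a list and read from a table of 31417 genes. All 34 were found in the table and all 34 passed the filter on low counts. They comprise 18 synthesis enzymes, 5 genes of SREBP control, 9 genes of transport and turnover, and both liver X receptors. The libraries came from 12-month-old mice of 2 genotypes, Dclk3 knockout (KO) and wild type (WT), with 4 libraries in each group and no treatment named in the labels. Each library was stranded poly(A) RNA from a single hippocampus. The sources used here do not give the strain, the sex, the litters or the part of Dclk3 that was removed, nor whether each library is a separate animal. The p-values set the difference between genotypes against the spread among the libraries of a group. That spread may therefore in part be technical, and may not be the spread among animals.

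Neurons and glia build cholesterol from acetyl-CoA within the brain, because lipoproteins of the blood do not pass the blood-brain barrier. The proteins SREBP-1 and SREBP-2 are held in the endoplasmic reticulum by SCAP and INSIG when sterols are plentiful, and switch on the synthesis enzymes when sterols run low. Astrocytes hand cholesterol to neurons on particles that carry apolipoprotein E, oligodendrocytes build it into myelin, and neurons dispose of it as 24S-hydroxycholesterol through CYP46A1. Liver X receptors sense oxidised sterols and drive export through ABCA1 and ABCG1.

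Libraries held between 29301974 and 36552757 counts, and the 34 members had between 32 and 63402 counts in a library. Dclk3, a doublecortin-like kinase and the targeted gene, ranged from 20.8 to 39.3 CPM (each count scaled to a common library size, written CPM) in WT against 5.92 to 9.29 in KO, with no overlap between the groups (log2 fold change -1.79, SE 0.22; edgeR adjusted p = 0.234). The hippocampal markers Prox1, C1ql2, Fibcd1 and Zbtb20 were present in every library, Prox1 at 97.8 to 130.3 CPM and Fibcd1 at 154 to 281 CPM. Markers of the choroid plexus, a tissue that borders the hippocampus, varied most among the libraries: the summed level of 10 such genes ran from 17.9 to 212 CPM in WT and from 31.5 to 253 CPM in KO.

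Promoter windows were available for 28 members in the RefSeq table (build GRCm38.p6, the same assembly as mm10), each from 250 bases before a transcription start to 50 after it. Fdps, Fdft1, Sqle, Stard4, Npc1 and Abcg1 had no window and were not searched. The windows shown here hold letter matches to motifs of proteins that act on this pathway, or of a partner of such a protein. In the window of Hmgcs1 (chr13:119690101-119690400, plus strand), capitals mark TCACNCCAC, a sterol regulatory element (SRE) motif bound by SREBP proteins. In that of Nsdhl (chrX:72918271-72918570, plus strand), they mark CCAAT boxes on either strand, which bind NF-Y, a partner of SREBP. In those of Srebf1 (chr11:60210422-60210721, minus strand) and Abca1 (chr4:53159846-53160145, minus strand), they mark a pair of GGTNA words 5 bases apart, the spacing of a liver X receptor element, matched on the strand opposite to the one printed. The window of Srebf1 is 1 of its 3.
Hmgcs1: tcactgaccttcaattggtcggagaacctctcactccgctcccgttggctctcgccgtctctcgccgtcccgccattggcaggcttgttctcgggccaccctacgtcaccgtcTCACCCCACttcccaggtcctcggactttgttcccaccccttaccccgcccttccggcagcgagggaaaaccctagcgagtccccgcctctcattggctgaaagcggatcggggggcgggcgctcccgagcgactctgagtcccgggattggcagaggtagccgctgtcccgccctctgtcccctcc
Nsdhl: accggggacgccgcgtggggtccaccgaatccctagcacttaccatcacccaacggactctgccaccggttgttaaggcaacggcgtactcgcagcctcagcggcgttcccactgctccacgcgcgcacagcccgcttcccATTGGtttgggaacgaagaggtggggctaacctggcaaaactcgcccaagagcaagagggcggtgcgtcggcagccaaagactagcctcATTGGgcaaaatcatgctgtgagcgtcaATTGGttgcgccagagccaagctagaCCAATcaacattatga
Srebf1: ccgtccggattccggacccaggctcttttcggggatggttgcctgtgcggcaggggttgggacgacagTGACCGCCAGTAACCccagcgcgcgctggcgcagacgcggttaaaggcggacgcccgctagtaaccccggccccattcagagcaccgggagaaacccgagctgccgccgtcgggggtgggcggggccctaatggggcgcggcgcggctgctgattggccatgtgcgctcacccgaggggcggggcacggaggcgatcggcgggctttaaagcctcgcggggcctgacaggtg
Abca1: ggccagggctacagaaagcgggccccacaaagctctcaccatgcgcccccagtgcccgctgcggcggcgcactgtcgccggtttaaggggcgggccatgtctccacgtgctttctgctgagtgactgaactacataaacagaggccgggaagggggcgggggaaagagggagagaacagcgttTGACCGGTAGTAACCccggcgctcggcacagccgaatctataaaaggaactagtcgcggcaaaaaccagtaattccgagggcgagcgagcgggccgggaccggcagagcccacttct

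Both strands were searched for these motifs, for the E-box CACGTG and for the GC box GGGCGG, and no match of a motif overlapped a match of another in the 39 member windows. The strict SRE letters were found in Hmgcs1 alone among the 28 members, with the match starting at position -137 from the start site, and in 1.44% of 27025 genes with a window. The receptor spacing was found in Srebf1 (position -182) and Abca1 (position -67), and in 0.818% of all genes. A CCAAT box stood in the windows of 14 of 15 synthesis genes (93.3%), all but Acat2, and of 7 of 13 other members (53.8%). Among the 11963 tested genes with a window the share was 42.4%. GC boxes stood in 14 of 15 synthesis genes (93.3%), in 10 of 13 other members (76.9%) and in 66.3% of tested genes. The E-box stood in 3 of 15 synthesis genes (Hsd17b7, Sc5d and Dhcr7), in 3 of 13 other members (Scap, Insig1 and Abca1) and in 11.2% of tested genes. A match is a run of letters and no evidence of binding, and genes with several start sites, such as Dhcr7 with 3 windows, had more bases searched.

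The highest level per transcript length belonged to Apoe, the lipid carrier of astrocytes, at 1023 ± 132 FPKM (CPM per kilobase of the longest coding transcript; mean ± SD over 8 libraries). Hmgcs1, which makes HMG-CoA for the mevalonate pathway, was next with 72.99 ± 7.96 FPKM, followed by the neuronal hydroxylase Cyp46a1 with 52.3 ± 3.91 FPKM and Srebf2, the gene of SREBP-2, with 49.95 ± 3.69 FPKM. Cyp46a1 and Srebf2 did not differ in level beyond their spread. The lowest levels were those of Idi1 at 0.433 ± 0.0595 FPKM, the receptor gene Nr1h3 at 1.78 ± 0.348 FPKM and Fdps at 2.93 ± 0.382 FPKM. Idi1 and Fdps encode successive enzymes of isoprenoid synthesis, and both are uncertain in these counts. Of the 50-base words in their annotated transcripts, 25.3% and 26.2% also occur in transcripts of other genes, and the part of this in their low levels was not tested. The share was 39.1% for Acat2, mostly through Acat3, 26.5% for Fdft1, which overlaps Ctsb on the opposite strand, 11.6% for Hmgcs1, 9.96% for Scap and 9.87% for Tm7sf2, whose values are uncertain in the same way.

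**Figure D1:**
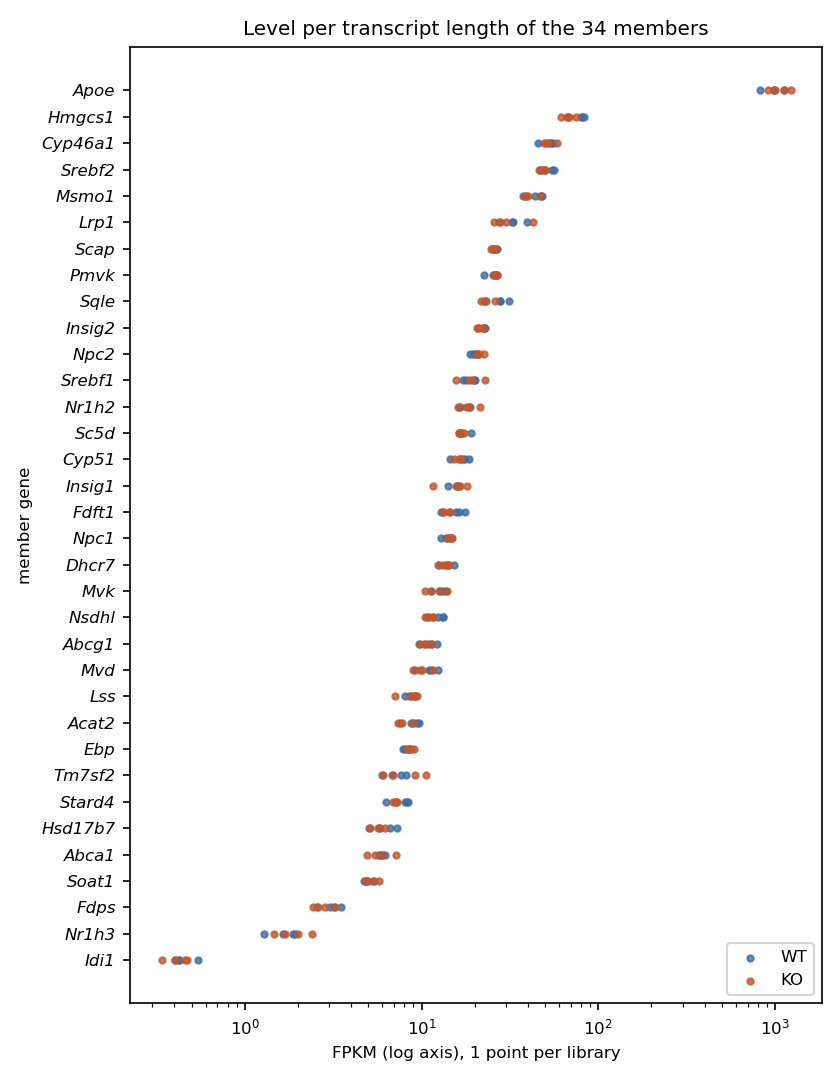
Level of each of the 34 members per kilobase of its longest coding transcript (FPKM, log axis), with 1 point for each of 8 libraries, WT in blue and KO in orange. Apoe lies at 1023 FPKM on average and Idi1 at 0.433 FPKM, and the points of both genotypes overlap in every gene but Insig2 and Npc2.

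None of the 34 members was called in the comparison of KO with WT by edgeR's quasi-likelihood test (adjusted p under 0.05), where 0 of 16228 genes were called (0%). That test did not call Dclk3 either (edgeR adjusted p = 0.234), so a lack of calls does not show that members were unchanged. Before adjustment, 1000 genes had a p under 0.05. DESeq2 called 4 genes, chosen for naming after the result was seen (Dclk3, Col6a4, Eml5 and Zcchc7), and limma-voom called 0; no member was among them. Of the members, 3 lay lower in KO at an unadjusted p under 0.05, and 2.20% of all tested genes did so; 0 lay higher, against 3.96% of all tested genes. These 3 were Acat2, Hmgcs1 and Sqle, all enzymes of synthesis. The counts also changed with the test. In limma-voom 2 members had an unadjusted p under 0.05, of which 1 lay lower in KO. Hmgcs1 and Sqle were at limma-voom unadjusted p = 0.0876 and 0.0927. With upper quartile factors, the filter of 1 CPM or non-robust dispersion, 4 members passed, of which 3 lay lower. With no low-count filter or with the replicate block, 4 passed, all lower. The count of members lower in KO rests on single libraries. It was 8 without WT replicate 1, 0 without WT replicate 2 or WT replicate 4, 2 without WT replicate 3 or KO replicate 2, and 1 without any other KO library. Leaving out WT replicate 2 gave 1 member higher in KO at that threshold, as did leaving out the first or the fourth KO library. In bulk tissue, fewer cells of a type and less RNA per cell cannot be told apart.

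Synthesis genes lay mostly below 0, and transport and turnover genes on both sides of it. Of the 18 synthesis genes, 15 had a log2 fold change (KO over WT) below 0 and 3 above it, with a median of -0.11 and a range from -0.24 to 0.20. Over all tested genes 49.9% lay below 0 and the median was 0.00. The 18 genes were read in the same 8 libraries and are not 18 separate observations. With genotype means removed, 107 of 153 pairs of synthesis genes correlated above 0 across the libraries (median 0.28). For transport and turnover genes, 15 of 36 pairs did (median -0.14). Of the 9 transport and turnover genes, 4 lay below 0 and 5 above, with a median of 0.02, which was -0.03 without WT replicate 2. In limma-voom the medians were closer together, at -0.06 for synthesis and -0.04 for transport and turnover. The 5 SREBP control genes had a median of -0.05. Both liver X receptor genes lay above 0, as did 50.1% of tested genes. The synthesis median was close in size to the SE of a single synthesis gene, which had a median of 0.09. Without KO replicate 4 or WT replicate 4 the synthesis median was -0.06 in each case, and without WT replicate 1 it was -0.16.

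**Figure D2:**
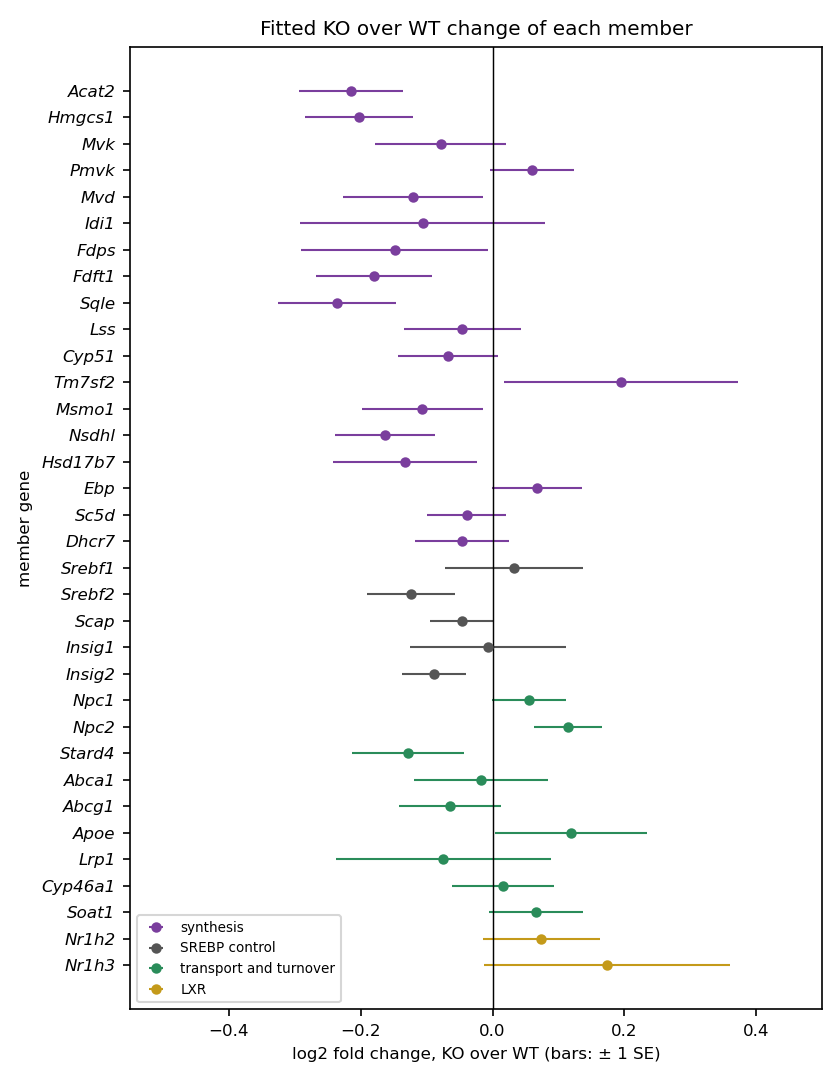
Log2 fold change of KO over WT for each member from the edgeR fit (horizontal axis; bars are ± 1 SE), in order of role and coloured by arm of the pathway. Of 18 synthesis genes, 15 sit left of 0, whereas the 9 transport and turnover genes lie on both sides.

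The mevalonate steps run from acetyl-CoA to farnesyl diphosphate, and 6 of their 7 genes lay below 0 (median -0.12). Acat2, the cytosolic thiolase that joins acetyl-CoA units, had 19.5, 21.8, 20.1 and 21.3 CPM in WT replicates 1 to 4 against 20.2, 16.9, 17.4 and 16.6 in KO replicates 1 to 4. KO replicate 1 lay within the WT range and the other 3 KO libraries below it. The log2 fold change stood at -0.22 (SE 0.08; unadjusted p = 0.021; edgeR adjusted p = 0.796). Hmgcs1 had 234, 282, 278 and 287 CPM in WT against 214, 259, 237 and 231 in KO. WT replicate 1 lay among the KO libraries, while the other 3 WT libraries exceeded every KO library. Its log2 fold change stood at -0.20 (SE 0.08; unadjusted p = 0.0328; edgeR adjusted p = 0.796).

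The remaining mevalonate genes overlapped between the genotypes; pairs of values here and later are mean ± SD (n = 4) in WT, then in KO. Mvk, the mevalonate kinase, had 21.1 ± 1.77 CPM in WT against 19.99 ± 2.50 in KO. Pmvk, the next kinase, was the exception in sign at 30.1 ± 2.15 and 31.4 ± 0.582 CPM. Mvd, the decarboxylase that yields isopentenyl diphosphate, had 19.3 ± 2.36 and 17.7 ± 1.89 CPM. Idi1, the isomerase, had 1.36 ± 0.193 and 1.26 ± 0.181 CPM, and Fdps, farnesyl diphosphate synthase, 4.25 ± 0.551 and 3.83 ± 0.480 CPM. Their edgeR adjusted p lay between 0.840 and 0.928.

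The squalene steps commit farnesyl diphosphate to sterols, and all 3 genes lay below 0 (median -0.18). Sqle, squalene epoxidase and a rate-controlling enzyme, had 63.8, 85.8, 76.2 and 76.96 CPM in WT against 62.8, 71.4, 62.6 and 60.2 in KO. Here too WT replicate 1 lay within the KO range and the other 3 WT libraries above it. The log2 fold change of -0.24 (SE 0.09; unadjusted p = 0.0247; edgeR adjusted p = 0.796) was the lowest of the 34 members. Fdft1, squalene synthase, had 47.7, 65.1, 58.3 and 60.1 CPM in WT against 48.98, 53.4, 52.9 and 48.9 in KO (log2 fold change -0.18, SE 0.09; edgeR adjusted p = 0.796), with a fold change of -0.11 without WT replicate 2. WT replicate 1 was the lowest of all 8 libraries, and the other 3 WT libraries lay above every KO library. Lss, which closes the ring to lanosterol, had 40.9 ± 2.51 CPM in WT against 39.6 ± 4.72 in KO (edgeR adjusted p = 0.936), and its fold change was positive without KO replicate 4, at 0.03.

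The sterol steps turn lanosterol into cholesterol, and 6 of 8 genes lay below 0 (median -0.06). Nsdhl, a sterol dehydrogenase of C4 demethylation, had 23.9, 28.8, 26.8 and 28.8 CPM in WT against 25.2, 25.2, 23.4 and 22.7 in KO. The arrangement was that of Sqle, with WT replicate 1 inside the KO range and the other 3 WT libraries above it (log2 fold change -0.16, SE 0.08; edgeR adjusted p = 0.796). Hsd17b7, a reductase of the same demethylation, had 23.4, 30.5, 27.01 and 33.6 CPM in WT against 23.2, 26.1, 28.7 and 26.4 in KO, with broad overlap (log2 fold change -0.13, SE 0.11; edgeR adjusted p = 0.833). Its fold change was -0.22 without WT replicate 1 and -0.05 without WT replicate 4. Msmo1, the methyl oxidase, had 90.4 ± 10.1 and 83.97 ± 7.88 CPM, and Cyp51, the lanosterol demethylase, 66.7 ± 6.96 and 63.7 ± 2.47 CPM. Sc5d, a desaturase, had 82.02 ± 5.92 and 79.8 ± 2.20 CPM, and Dhcr7, the reductase of 7-dehydrocholesterol, 39.1 ± 3.14 and 37.9 ± 2.24 CPM. Both of these changed sign, to 0.02 and 0.0013, without WT replicate 2. Ebp, a sterol isomerase, had 14.4 ± 0.597 and 15.04 ± 0.601 CPM. Tm7sf2, a sterol reductase, had the largest spread of the 34 members, a coefficient of variation of 21.1%, at 10.7 ± 1.49 and 12.3 ± 3.16 CPM. KO replicate 1 held its highest value, 15.9 CPM, and its log2 fold change of 0.20 was 0.05 without that library.

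**Figure D3:**
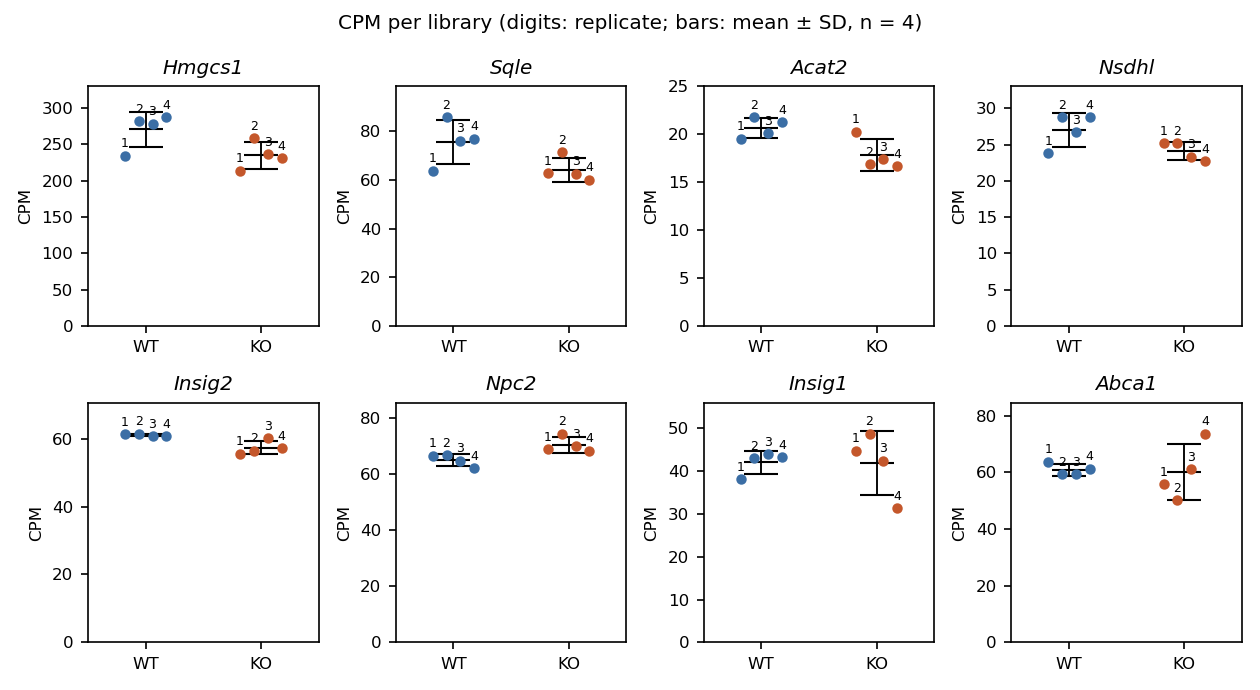
CPM of 8 members in each library (vertical axis from 0; digits are replicate numbers; bars are mean ± SD, n = 4 per group). In Hmgcs1, Sqle and Nsdhl, WT replicate 1 sits with the KO libraries, and in Insig1 and Abca1 KO replicate 4 sits apart at 31.3 and 73.7 CPM.

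Among the genes of SREBP control, Insig2, one of the paired proteins that retain SCAP in the endoplasmic reticulum, had 61.2, 61.4, 60.7 and 60.6 CPM in WT against 55.5, 56.4, 60.2 and 57.2 in KO. All KO libraries lay under all WT libraries, which was so for 1.92% of tested genes and for Insig2 alone of the 34 members. The gap was narrow, from 60.2 CPM (KO replicate 3) to 60.6 CPM (WT replicate 4). Its log2 fold change stood at -0.09 (SE 0.05; edgeR adjusted p = 0.796). Srebf2 had 254, 287, 241 and 276 CPM in WT against 246, 239, 252 and 234 in KO, with WT replicate 3 inside the KO range (log2 fold change -0.12, SE 0.07; edgeR adjusted p = 0.796), and a fold change of -0.08 without WT replicate 2. Scap, the sterol sensor that escorts SREBP, was the steadiest member, with a coefficient of variation of 2.80% at 111 ± 2.75 and 107 ± 2.44 CPM. Srebf1, whose product drives mainly fatty acid genes, had 80.4 ± 6.16 and 82.2 ± 12.7 CPM.

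Insig1, itself a target of SREBP, was chosen for full values after they were seen. It had 38.04, 42.9, 43.9 and 43.2 CPM in WT against 44.7, 48.7, 42.4 and 31.3 in KO. KO replicate 4 held the lowest value of the 8 libraries and KO replicate 2 the highest, and the log2 fold change stood at -0.01 (SE 0.12; edgeR adjusted p = 0.993). Its sign was positive with upper quartile factors, in limma-voom, with the filter of 1 CPM, and with WT replicate 2, 3 or 4 or KO replicate 4 left out.

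Of the 3 genes that move cholesterol between organelles, Npc2, the soluble lysosomal carrier, had 66.5, 66.7, 64.7 and 61.97 CPM in WT against 68.9, 74.3, 69.9 and 68.3 in KO. Every KO library lay above every WT library, as in 1.88% of tested genes, and no other member did so. The log2 fold change stood at 0.11 (SE 0.05; unadjusted p = 0.0515; edgeR adjusted p = 0.796). Npc1, the membrane partner that receives cholesterol from NPC2, had 72.9 ± 4.32 CPM in WT against 75.7 ± 1.98 in KO (edgeR adjusted p = 0.868). Stard4, a cytosolic sterol carrier and SREBP target, had the opposite sign, with 32.3, 42.5, 40.95 and 42.1 CPM in WT against 35.1, 36.8, 35.8 and 36.5 in KO (log2 fold change -0.13, SE 0.08; edgeR adjusted p = 0.803). WT replicate 1 lay below every KO library and the other 3 WT libraries above them all, and the fold change was -0.22 without WT replicate 1.

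Export and uptake genes overlapped between the genotypes. Apoe had 1592, 1152, 1389.6 and 1388 CPM in WT against 1725, 1588, 1278 and 1404 in KO (log2 fold change 0.12, SE 0.12; edgeR adjusted p = 0.861). WT replicate 2 held the lowest value and KO replicate 1 the highest, and the fold change was 0.04 without the former, 0.05 without the latter and 0.19 without WT replicate 1 or KO replicate 3. Abcg1, a sterol exporter, had 65.8, 56.5, 63.2 and 70.9 CPM in WT against 56.8, 60.3, 67.1 and 60.9 in KO (log2 fold change -0.06, SE 0.08; edgeR adjusted p = 0.884), with fold changes of -0.12 without WT replicate 2 and -0.01 without WT replicate 4. Lrp1, the large receptor that takes up ApoE particles, ranged from 413 to 586 CPM in WT and from 385 to 637 CPM in KO, with the top value in KO replicate 4. Abca1, the exporter that lipidates ApoE whose printed window holds a match to the receptor spacing, had 63.8, 59.3, 59.4 and 61.4 CPM in WT against 55.97, 50.3, 61.1 and 73.7 in KO. Its KO values spread to either side of the narrow WT range. The log2 fold change stood at -0.02 (SE 0.10; edgeR adjusted p = 0.981), and -0.13 without KO replicate 4.

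Both genes of turnover lay close to 0. Cyp46a1 had 113, 96.1, 115 and 117 CPM in WT against 123, 109.9, 105 and 107 in KO (log2 fold change 0.02, SE 0.08; edgeR adjusted p = 0.978). Its WT values enclosed 3 of the 4 KO values. Soat1, which esterifies cholesterol for storage, had 44.8, 40.4, 39.6 and 41.7 CPM in WT against 40.7, 40.4, 44.8 and 48.3 in KO (log2 fold change 0.07, SE 0.07; edgeR adjusted p = 0.876). The highest value was that of KO replicate 4, without which the fold change was 0.01.

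The liver X receptors were Nr1h2 (LXR beta), the more abundant in these libraries, and Nr1h3 (LXR alpha). Nr1h2 had 37.4, 32.4, 36.9 and 33.2 CPM in WT against 42.6, 35.5, 36.99 and 32.1 in KO (log2 fold change 0.07, SE 0.09; edgeR adjusted p = 0.885). Nr1h3 had 3.65, 3.77, 3.21 and 2.50 CPM in WT against 4.71, 3.31, 2.87 and 3.90 in KO (log2 fold change 0.17, SE 0.19; edgeR adjusted p = 0.875). KO replicate 1 was the highest library for both. Without it Nr1h2 stood at a log2 fold change of -6.4e-05 and Nr1h3 at 0.04.

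Libraries of 1 genotype differed in synthesis genes by more than the genotype means did. The mean of the 18 synthesis genes, in log2 CPM centred on the 8 libraries, was -0.08, 0.07, 0.05 and 0.13 in WT replicates 1 to 4 and -0.02, 0.02, -0.03 and -0.15 in KO replicates 1 to 4. WT replicate 1 was thus lower than any KO library but replicate 4. KO replicate 4 held the lowest value of the 8 for 9 of the 18 synthesis genes and for 4 of the 5 SREBP control genes. WT replicate 2 held the highest for 7 synthesis genes and WT replicate 4 for 5. For the 9 transport and turnover genes the corresponding means were 0.03, -0.07, -0.04 and 0.07 in WT and -0.02, -0.04, -0.01 and 0.09 in KO.

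Synthesis relative to transport and turnover within a library, the difference of those means, was -0.11, 0.14, 0.10 and 0.06 in WT and 0.01, 0.06, -0.02 and -0.24 in KO. The groups overlapped, with means of 0.05 ± 0.11 in WT and -0.05 ± 0.13 in KO (SD, n = 4). The difference between genotypes was -0.09, less than either SD, and -0.03 without KO replicate 4. No p is given for these means, because the genes were chosen with results of these data known.

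**Figure D4:**
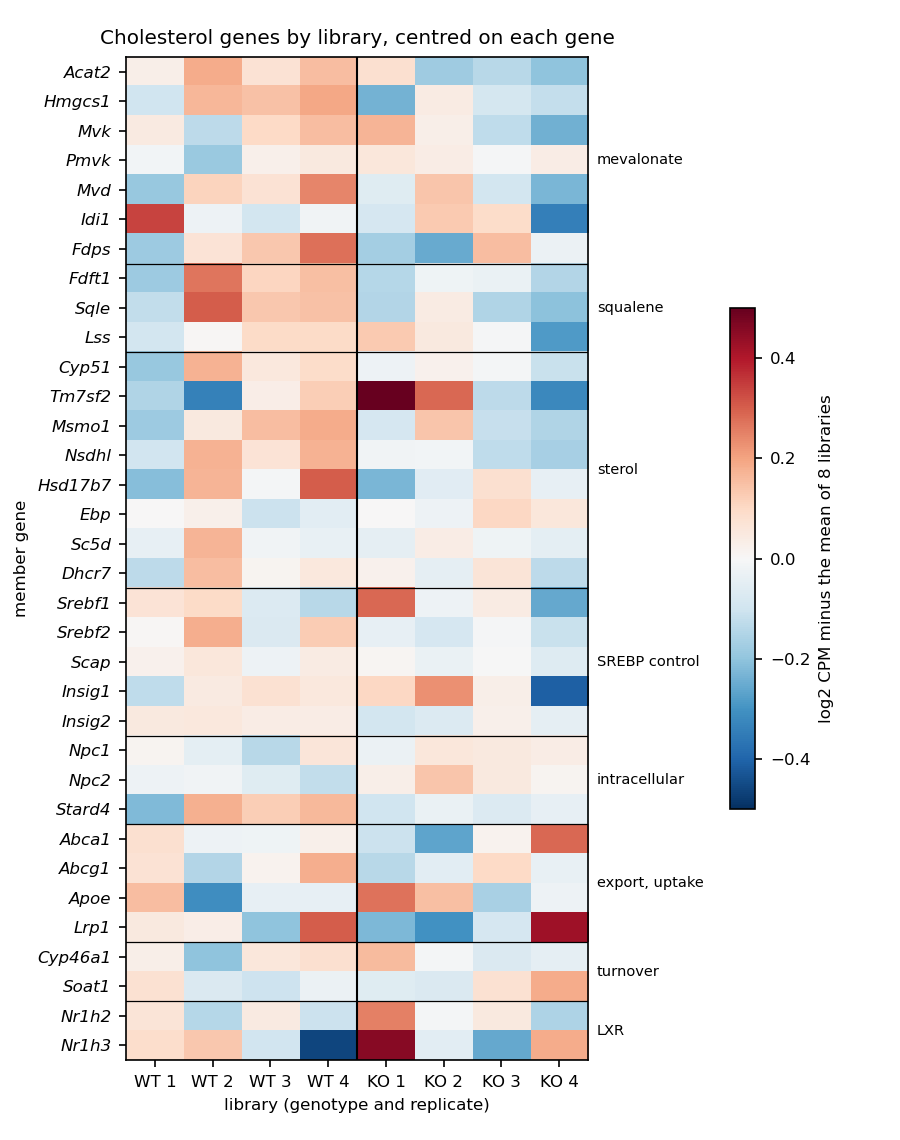
Log2 CPM of each member in each library minus its mean over the 8 libraries (colour), in order of role, with WT libraries left of the line and KO libraries right of it. Blue cells run down the synthesis rows in WT replicate 1 and KO replicate 4, the libraries whose synthesis means were -0.08 and -0.15.

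Cell type markers were read in the same libraries. All 12 oligodendrocyte markers and 11 of 12 astrocyte markers had a log2 fold change above 0, with medians of 0.15 and 0.11, and all 10 neuronal markers lay below 0, with a median of -0.08; none was called by edgeR. All 10 microglial and all 8 endothelial markers lay above 0 (medians 0.08 and 0.07), as did 3 of 8 oligodendrocyte precursor markers (median -0.05) and 9 of 10 choroid plexus markers (median 0.35, SE of single genes at least 0.56). Summed oligodendrocyte markers, led by Mbp, ran from 3808 to 5438 CPM in WT and from 4644 to 5224 CPM in KO. Summed astrocyte markers, led by Aldoc, ran from 3096 to 3794 CPM in WT and from 3370.1 to 4050.3 CPM in KO, and neuronal markers, led by Snap25, from 7551 to 8232 and from 6728 to 7800.1 CPM. WT replicate 1 had the highest oligodendrocyte sum of the 8 libraries and the lowest synthesis mean in WT, while WT replicates 2 and 3 had the lowest oligodendrocyte sums. KO replicate 2 went the other way, with the highest oligodendrocyte sum (5224 CPM) and the highest synthesis mean (0.02) in KO. WT replicate 4, the highest of the 8 libraries in synthesis (0.13), had a sum of 4378 CPM, above those of WT replicates 2 and 3. KO replicate 4, the lowest in synthesis, lay within the WT range of oligodendrocyte markers and was the highest of the 8 libraries in summed microglial markers (852 CPM, the others 679 to 790 CPM) and endothelial markers (369 CPM, the others 283 to 354 CPM). The part of cell composition in the synthesis values was not tested.

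**Figure D5:**
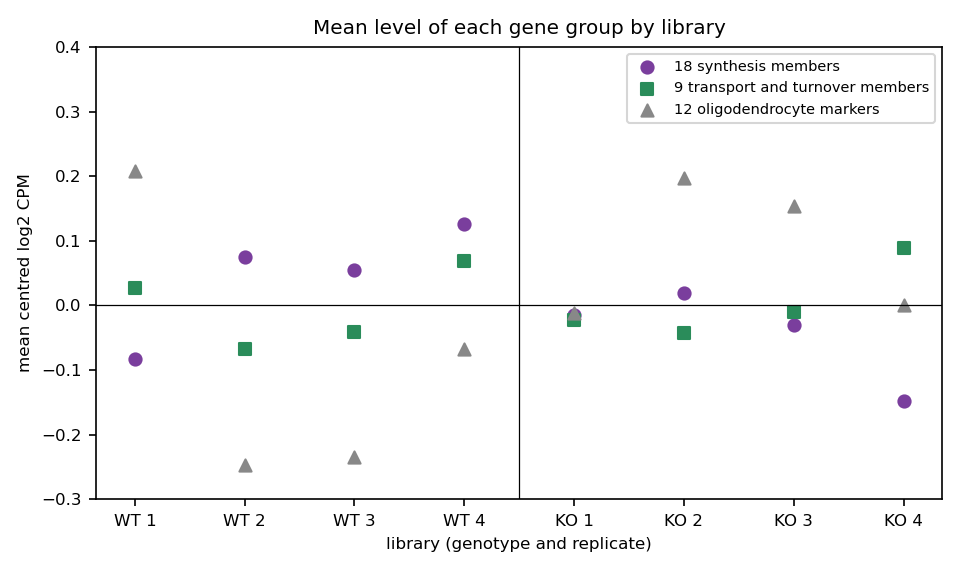
Mean centred log2 CPM (vertical axis) of 18 synthesis genes, 9 transport and turnover genes and 12 oligodendrocyte markers in each library. WT replicate 1 combines the top oligodendrocyte value with a synthesis mean of -0.08, and KO replicate 2 a value of 0.20 with a mean of 0.02. Synthesis and transport lie farthest apart in KO replicate 4.

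Further genes around the pathway were read from lists chosen with earlier results known, and 0 of their genes were called by edgeR. Of 9 genes of SREBP processing and degradation, 9 lay below 0 (median -0.06), with Rnf145, a sterol-responsive ubiquitin ligase, at 97.8 ± 2.66 and 92.1 ± 3.29 CPM in WT and KO, and Erlin1, of a complex in the endoplasmic reticulum, at 20.8 ± 1.58 and 19.2 ± 0.726 CPM. Of 11 genes of isoprenoid and ketone metabolism, 7 lay below 0 (median -0.01). Aacs, which makes acetoacetyl-CoA in the cytosol, had 49.8 ± 3.98 and 43.6 ± 2.29 CPM, and Cyb5r3, the reductase that serves sterol oxidation steps, 95.9 ± 9.90 and 83.4 ± 5.58 CPM. Of 18 fatty acid synthesis genes, 11 lay above 0 (median 0.03): Acly, which supplies cytosolic acetyl-CoA, had 204 ± 14.3 and 184 ± 7.08 CPM, and the lipogenic Thrsp 24.9 ± 2.45 and 29.04 ± 1.69 CPM.

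Of 17 further sterol transport genes, 11 lay below 0 (median -0.02). Osbpl2, an oxysterol-binding protein, had 64.1, 63.4, 65.01 and 61.9 CPM in WT against 58.6, 57.4, 58.5 and 58.2 in KO (log2 fold change -0.13, SE 0.05; edgeR adjusted p = 0.796). All its KO libraries lay under all WT libraries, as in 1.92% of tested genes, and so did those of Cyb5r3 and Acly. Gramd1c, a sterol carrier at membrane contacts, had 1.87 ± 0.0622 and 2.47 ± 0.550 CPM. Its KO libraries all lay above its WT libraries, as in 1.88% of tested genes, but only from 1.958 CPM (WT replicate 4) to 1.959 CPM (KO replicate 1). Of 15 further export and uptake genes, 8 lay below 0 and 7 above (median -0.0045). Among them Lcat, which esterifies cholesterol on lipoproteins, had 28.4 ± 3.08 and 35.2 ± 4.88 CPM, and Lrpap1, a chaperone of Lrp1, 208 ± 24.1 and 189 ± 6.63 CPM. Of 7 further oxysterol and bile acid genes 5 were tested, of which 4 lay above 0; Cyp27a1, a sterol hydroxylase, had 1.97 ± 0.616 and 2.60 ± 0.596 CPM. The other gene of lowest p there was Ch25h, which makes 25-hydroxycholesterol. It had 15, 21, 21 and 2 counts in WT and 17, 8, 14 and 315 counts in KO. The 315 counts in KO replicate 4 (10.1 CPM) exceeded every other library, none of which passed 0.674 CPM, so its difference between genotypes rests on that library.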

How the data were processed

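The deposited table holds whole-number read counts per Ensembl gene, 1 column per library and not normalized by the authors, per the file headers. The submitters' processing notes name bcl2fastq 2.17.1.14 and the build mm10, with aligner, counting tool and strand use not given in the sources used here. Overlapping genes and near-identical copies are therefore uncertain. Of 31417 gene IDs, 125 had no symbol. KO was compared with WT in R 4.3.3 with edgeR 4.0.16 (TMM scaling, filterByExpr, robust quasi-likelihood F test, Benjamini-Hochberg adjustment over 16228 genes). The SE is the size of the log2 fold change divided by the square root of F. CPM used the same scaling, and 1 count equalled 0.0272 to 0.0346 CPM. FPKM used the longest coding transcript in GENCODE M21, and log2 CPM a prior count of 2. Pairs of libraries within a group were compared to see whether any pair was the same library read again. Their chi-square per degree of freedom, 8.85 to 40.9, was above that of repeated reads of the same library, so all 8 were kept as separate libraries. It was no measure of quality. Without molecular identifiers, reads are not independent molecules. Alternatives were DESeq2 1.42.0, limma-voom (limma 3.58.1), other scalings and filters, non-robust dispersion, a replicate block and each library left out. The members and lists were chosen with earlier results of these data known. Full values are given for members at an unadjusted p under 0.05, without overlap, or among the 2 of lowest p in each of 8 roles, and the 2 genes of lowest p are named from each further list. Hippocampal markers, and the full values of Insig1 and Abca1, were chosen after values were seen. The full values of Osbpl2 and Ch25h, and the printed window of Nsdhl, were given outside these rules.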

Additional observations from a re-analysis of the deposited data

Results flagged for a closer look

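In 5 of 74 sets of 4 libraries, 1 library stood far from the other 3 by Dixon's criterion for the gap to the nearest library as a share of the range, and chance gives about 1 in 20. WT replicate 1 was low in Hmgcs1 (234 CPM, the next WT library at 278 CPM), in Insig1 (38.04 CPM, next 42.9 CPM) and in Stard4 (32.3 CPM, next 40.95 CPM). The same library was high in Idi1 (1.64 CPM, next 1.28 CPM), and WT replicate 2 was high in Sc5d (90.9 CPM, next 79.9 CPM).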

How the results depend on the processing

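No member was called under any of the 16 alternatives run, and the synthesis median stayed below 0 in all of them, between -0.16 (WT replicate 1 left out) and -0.06 (KO replicate 4 left out). The transport and turnover median was -0.04 in limma-voom and -0.03 without WT replicate 2, and above 0 otherwise. Synthesis minus transport ranged from -0.15 to -0.03 with a library left out. Genes called over the whole table numbered 4 in DESeq2, 1 with the replicate block (Dclk3) and 0 to 1 with a library left out. Genes at an unadjusted p under 0.05 numbered 1505 in limma-voom and 556 to 1777 with a library left out, the highest without KO replicate 4. The replicate numbers did not pair the libraries: same-numbered deviations correlated at 0.14, 0.12, -0.22 and -0.01, and 0 of 4 numbers matched best. With the block the synthesis median was -0.10, the transport and turnover median 0.02, and the difference between them by library -0.09, with 928 genes at an unadjusted p under 0.05. Members near 0 changed sign. In limma-voom the synthesis median was -0.06, Sc5d was at 0.0082, Insig1 at 0.064 and Cyp46a1 at -0.037, and Insig1 was at 0.013 with upper quartile factors and at 0.0024 with the filter of 1 CPM. With a library left out, log2 fold changes ran from -0.17 to 0.0010 for Idi1, -0.095 to 0.032 for Lss, -0.060 to 0.016 for Sc5d, -0.096 to 0.0013 for Dhcr7, -0.062 to 0.11 for Srebf1, -0.087 to 0.11 for Insig1, -0.13 to 0.061 for Abca1, -0.26 to 0.017 for Lrp1, -0.042 to 0.044 for Cyp46a1 and -6.4e-05 to 0.13 for Nr1h2. Depth limits Idi1, with 32 counts in KO replicate 4.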
